A study of Mus musculus with 230 samples.

Results

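The transcripts examined here were those of 6 intermediate filament genes of sensory neurons, namely Nefl, Nefm and Nefh (the light, medium and heavy neurofilament chains), Ina (alpha-internexin), Prph (peripherin) and Vim (vimentin). They were taken by symbol from a count table of 53278 mouse genes, and all 6 were present and passed the filter on low counts that left 14212 genes for testing. The cells were neurons of the L4 and L5 dorsal root ganglia (DRG), the ganglia whose axons feed the sciatic nerve, from mice of a C57BL/6 X CAST/Ei cross, picked by hand after enzymatic dissociation. The RNA came from the cytoplasm, separated from the nucleus, and was made into libraries by SMART-seq2. Low-input libraries (pools of neurons, whose number of cells is not given in the sources used here) formed 6 groups of 3, intact or injured by sciatic nerve surgery at 1, 8 or 12 months of age. Single neurons formed 4 groups, with 18 intact and 21 injured cells at 1 month and 8 intact and 22 injured cells at 1 year. The labels name no animal, so the p-values measure the spread between these libraries, which may be technical, and the time between injury and collection is not given in the sources used here.

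Neurofilaments are heteropolymers that set the calibre of large axons: the light chain forms the core, while the medium and heavy chains carry long tails that project from the filament and are heavily phosphorylated in axons. Alpha-internexin copolymerises with the 3 neurofilament chains and is prominent in developing neurons. Peripherin is the filament protein typical of small-diameter peripheral neurons, whereas abundant heavy chain is a standard marker of large myelinated sensory neurons, so that the relation of Prph to Nefh is widely used to describe DRG neuron classes. Vimentin is the filament of mesenchymal, glial and progenitor cells, is low in most mature neurons, and has been studied after axon injury.

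In the annotation used for counting (build GRCm38), Nefl lies at chr14:68083863-68089095 on the plus strand and Nefm at chr14:68082590-68124846 on the minus strand, so that the annotated span of Nefm covers the whole of Nefl. These genes share 1108 exonic bases, which are 32.8% of the 3380 exonic bases of Nefl and 19.2% of the 5782 of Nefm. Ina (chr19:47014698-47025327, plus strand, 3240 exonic bases) shares 456 bases, or 14.1%, with Nt5c2 on the opposite strand. Counting did not use strand and left out reads that overlap more than 1 gene, so reads from the shared stretches are absent from the counts of Nefl, Nefm and Ina, and their levels per kilobase (kb) of exon are understated to an extent that cannot be read from the table. Nefh (chr11:4938754-4948064, minus strand, 3994 exonic bases), Prph (chr15:99055174-99058978, plus strand, 1865 bases) and Vim (chr2:13573927-13582826, plus strand, 4743 bases) share no exonic base with another gene.

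The promoter sequences of 3 members are shown, since the promoter set used here held an entry only for Vim, Prph and Ina among the members. Each is the 250 bases before a RefSeq transcript start in GRCm38.p6, read 5′ to 3′ on the plus strand, at chr2:13574061-13574310 for Vim, chr15:99054924-99055173 for Prph and chr19:47014431-47014680 for Ina. Capitals mark TATAAA (the TATA box), CCAAT (the CCAAT box) and GGGCGG (the GC box), each found on either strand.
Vim: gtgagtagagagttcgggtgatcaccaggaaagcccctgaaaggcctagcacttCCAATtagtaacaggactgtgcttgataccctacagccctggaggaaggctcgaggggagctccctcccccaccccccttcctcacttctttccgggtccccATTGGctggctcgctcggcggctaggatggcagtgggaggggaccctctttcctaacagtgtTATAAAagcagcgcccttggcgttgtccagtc
Prph: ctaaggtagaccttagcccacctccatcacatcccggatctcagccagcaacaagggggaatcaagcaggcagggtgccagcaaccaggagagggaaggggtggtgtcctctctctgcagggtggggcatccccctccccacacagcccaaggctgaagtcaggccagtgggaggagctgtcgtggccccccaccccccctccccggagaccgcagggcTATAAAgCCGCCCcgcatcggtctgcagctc
Ina: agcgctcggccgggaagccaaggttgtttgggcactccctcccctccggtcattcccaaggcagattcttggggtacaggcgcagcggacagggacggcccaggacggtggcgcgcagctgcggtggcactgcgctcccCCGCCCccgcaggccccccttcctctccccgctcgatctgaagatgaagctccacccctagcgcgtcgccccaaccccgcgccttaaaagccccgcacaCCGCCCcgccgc
The Vim window holds TATAAA 32 to 27 bases before the start, CCAAT 196 to 192 bases before it and CCAAT on the minus strand 94 to 90 bases before it. The Prph window holds TATAAA 31 to 26 bases before the start and GGGCGG on the minus strand 24 to 19 bases before it. The Ina window holds no TATAAA and 2 copies of GGGCGG on the minus strand, 111 to 106 and 12 to 7 bases before the start. Of 32851 promoter windows of this length, 12.4% hold TATAAA, 33.8% CCAAT and 32.7% GGGCGG. The AP-1 motif TGANTCA, which 6.75% of windows hold, and the cyclic AMP response element TGACGTCA, which 1.55% hold, were not found in these 3 windows. The GC content was 58.4% for Vim, 65.2% for Prph and 70.8% for Ina. Nefl, Nefm and Nefh are named only.

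The low-input libraries held 7531967 to 19443627 counts on mouse genes, but a single feature, CT010467.1, took 29.4% to 93.8% of them and left 770328 to 11587094 counts for all other genes. The second intact 12-month library stood apart, with the lowest of these counts, 40.5% of them on mitochondrially encoded genes (1.19% to 3.55% in the other 17 libraries). The main results that rest on it, though not all, are given with and without it. The share on CT010467.1 was 40.4% to 93.8% in intact and 29.4% to 59.7% in injured libraries. The injury markers Atf3, Sprr1a, Gal, Sox11, Ecel1 and Npy had a summed level of 519 to 2979 CPM (counts scaled to a common library total) after injury and 3.19 to 28.003 CPM in intact ones, and all 6 passed the test as higher after injury. Y-linked genes had counts in all 12 libraries of 1 and 8 months and in 0 of 6 of 12 months, so that sex and the oldest age cannot be told apart.

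Levels below are CPM after trimmed mean of M values (TMM) scaling, given as mean ± SD over libraries. Per kb of exon, Nefl was the highest member in intact neurons at 604 ± 187 CPM per kb (SD, n = 9 libraries), followed by Prph at 451 ± 312, Nefm at 424 ± 446 and Nefh at 366 ± 589. Ina, at 10.8 ± 13.6 CPM per kb, lay far below these 4. Without the second intact 12-month library the means were 560 ± 143 for Nefl, 491 ± 308 for Prph, 277 ± 71.3 for Nefm and 172 ± 96.1 for Nefh (SD, n = 8). Their ranks among the 14212 genes by mean level per kb in intact libraries were 22 for Nefl, 30 for Prph, 33 for Nefm and 40 for Nefh, against 2048 for Ina and 4644 for Vim. Without that library Nefm ranked 48 and Nefh 100, with Nefl at 17, Prph at 22, Ina at 1908 and Vim at 5487. In injured libraries the ranks were 17 for Nefl, 32 for Prph, 40 for Nefm, 115 for Nefh, 1679 for Vim and 3644 for Ina. Neighbours in the order of Prph, Nefm and Nefh lay within the spread of the libraries, and Vim and Ina changed places between the conditions.

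**Figure D1:**
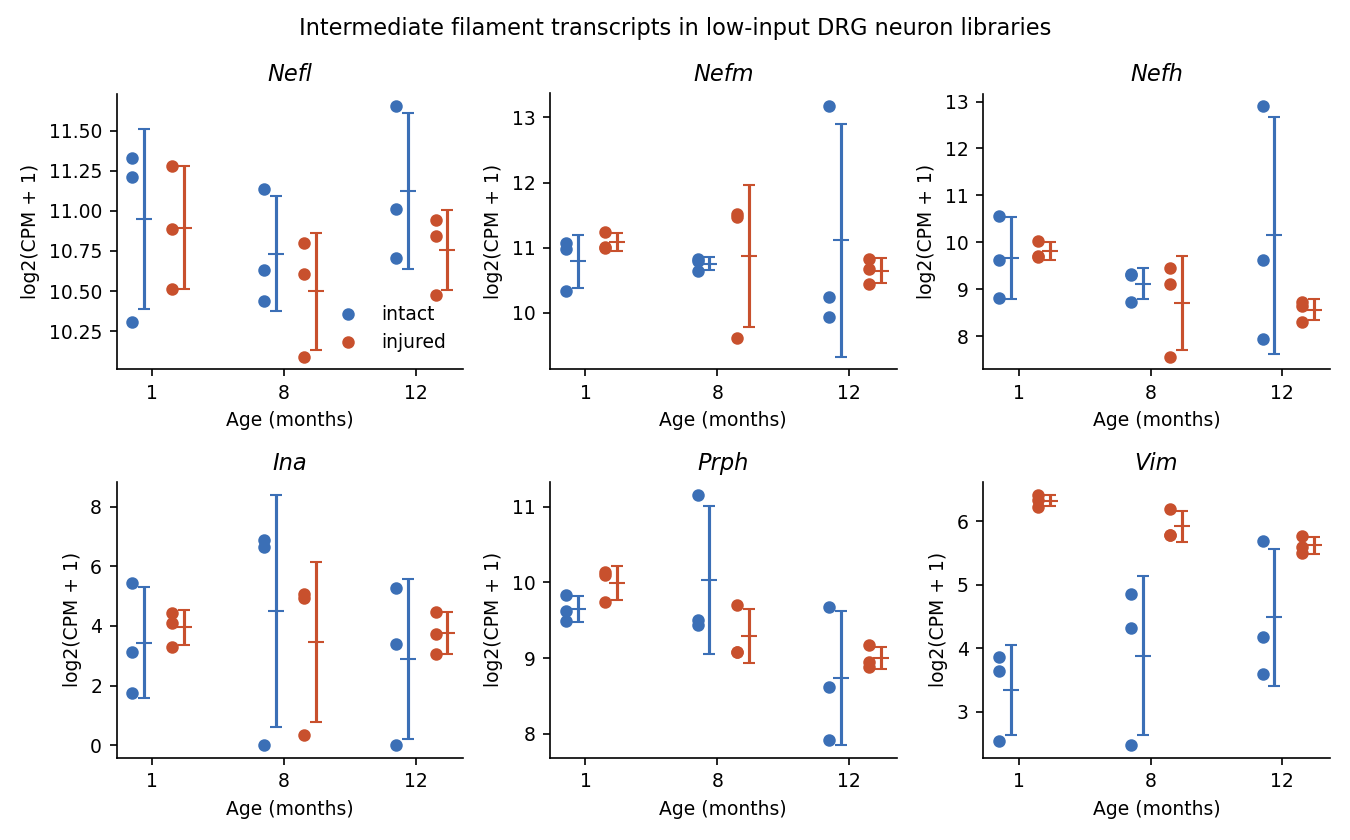
Level of each of the 6 filament genes in the 18 low-input libraries, as log2(CPM + 1) against age in months. Points are libraries, the bars beside them the mean ± SD of 3 libraries, blue for intact and red for injured. Vim is above every intact library at 1 and 8 months, while the other 5 genes overlap at every age.

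Among the 3 neurofilament chains, Nefl made up 52.1% ± 12.9 of their summed level per kb in intact libraries, Nefm 28.8% ± 5.50 and Nefh 19.1% ± 10.03 (SD, n = 9). In injured libraries the corresponding means were 52.05% for Nefl, 33.9% for Nefm and 14.1% for Nefh. These mixtures overlapped widely, from 8.48% to 42.9% Nefh in intact libraries. The 42.9% belonged to the second intact 12-month library, which also held the highest level of each of the 3 chains. Without it the mean share of Nefh was 16.2% ± 4.93 (n = 8) and its highest 25.5%.

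Nefl, the core chain, stood at 2574, 2365 and 1264 CPM in the 3 intact libraries of 1 month, and the 3 injured ones had 1462, 2488 and 1890 CPM. At 8 months the intact values were 1587, 2246 and 1384 CPM and the injured ones 1089, 1780 and 1559 CPM. At 12 months they were 2061, 3220 and 1668 CPM against 1839, 1972 and 1422 CPM. The groups overlapped at every age, with 1264 to 3220 CPM over all 9 intact and 1089 to 2488 CPM over all 9 injured libraries. Averaged over ages, the log2 difference of Nefl, injured minus intact, was -0.24 ± 0.20 (standard error, SE; edgeR quasi-likelihood test, Benjamini-Hochberg adjusted p = 0.547).

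Nefm had 2012, 2145 and 1285 CPM in the intact libraries of 1 month, where the injured ones had 2068, 2037 and 2416 CPM. At 8 months the intact libraries lay close together at 1822, 1776 and 1593 CPM, and the injured ones apart at 779, 2931 and 2845 CPM. At 12 months the intact values were 1209, 9251 and 974 CPM and the injured ones 1632, 1812 and 1397 CPM. The averaged log2 difference of Nefm was -0.21 ± 0.37 (SE; edgeR adjusted p = 0.801), and 0.39 ± 0.21 without the second intact 12-month library, so 1 library set its sign.

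Nefh, the heavy chain of large myelinated neurons, had 1515, 786 and 449 CPM in the intact libraries of 1 month, and the injured ones lay within that range at 841, 827 and 1049 CPM. At 8 months the values were 643, 634 and 425 CPM against 188, 697 and 554 CPM. At 12 months they were 791, 7662 and 245 CPM against 425, 401 and 317 CPM, and the injured libraries fell between the lowest and the middle intact one. The 12-month log2 difference of Nefh was -2.92 ± 0.88 (SE; edgeR adjusted p = 0.0837) and the averaged one -1.06 ± 0.48 (adjusted p = 0.220). Without the second intact 12-month library these were -0.44 ± 0.55 and -0.23 ± 0.30. In edgeR the 12-month difference passed when the first (-3.36 ± 0.88, adjusted p = 0.0445) or the third (-3.46 ± 0.71, adjusted p = 0.0239) intact library of that age was left out, and DESeq2 called it with all libraries in (-3.11 ± 0.80, adjusted p = 0.00378). The markers of large-fibre neurons were Pvalb, Ntrk3, Ntrk2, Ldhb, Spp1 and Calb1. They summed to 77.6 to 1410 CPM in intact and 39.3 to 872 CPM in injured pools. Their RNA thus varied between pools within each condition. In pools such as these, fewer cells of a type and less RNA per cell cannot be told apart.

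Ina was low and uneven. It was at 2.40, 7.69 and 42.4 CPM in intact libraries at 1 month, 0, 116 and 98.5 CPM at 8 months and 9.59, 0 and 37.8 CPM at 12 months. In injured libraries it was at 20.8, 16.2 and 8.92 CPM, then 32.6, 0.278 and 29.7 CPM, then 7.41, 12.3 and 21.1 CPM. Libraries at or near 0 occurred in both conditions, and the averaged log2 difference of Ina was -0.78 ± 0.86 (SE; edgeR adjusted p = 0.666).

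Prph had 909, 717 and 789 CPM in the intact libraries of 1 month, while the injured ones held 1092, 854 and 1127 CPM. At 8 months the intact libraries held 695, 2285 and 722 CPM and the injured ones 830, 540 and 542 CPM. At 12 months the values were 392, 240 and 817 CPM against 494, 574 and 473 CPM. The groups overlapped at each age, and the averaged log2 difference of Prph was -0.17 ± 0.26 (SE; edgeR adjusted p = 0.764). The largest difference of Prph at 1 age, -0.95 ± 0.45 at 8 months (adjusted p = 0.411), rested on the second intact 8-month library and was -0.15 without it.

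Vim was higher in injured neurons. The intact libraries of 1 month had 4.80, 11.4 and 13.4 CPM, against 79.3, 74.1 and 84.6 CPM in the injured ones. At 8 months it was at 4.53, 19.03 and 27.9 CPM against 53.8, 72.5 and 54.1 CPM. At 12 months it was at 17.03, 50.6 and 11.1 CPM against 44.2, 53.5 and 47.2 CPM. Every injured library lay above every intact one at 1 and at 8 months, where 10.5% and 9.39% of all tested genes did so. No member did so at each of the 3 ages, as 1.83% of all genes did. At 12 months the groups overlapped through the second intact library, whose 50.6 CPM rest on 28 counts. The injured libraries of all ages spanned 44.2 to 84.6 CPM and the intact ones 4.53 to 50.6 CPM.

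Averaged over ages, the log2 difference of Vim was 1.95 ± 0.33 (SE; edgeR adjusted p = 0.00158), and Vim was the only 1 of the 6 members to pass the test, in a comparison that called 6.18% of all genes and 5.11% as higher. DESeq2 and limma-voom also called Vim alone. Leaving out each library in turn gave 1.81 to 2.19 with adjusted p from 0.000395 to 0.00504. With the CT010467.1 share as a covariate the difference was 2.72 and no longer passed (adjusted p = 0.153), and with the log odds of that share it was 2.69 (adjusted p = 0.0301).

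By age, the log2 difference of Vim was 2.9996 ± 0.58 at 1 month (edgeR adjusted p = 0.0382), 1.81 ± 0.55 at 8 months (adjusted p = 0.146) and 1.03 ± 0.57 at 12 months (adjusted p = 0.352). At 1 month it was 1 of 6 members called, against 0.232% of all genes, and it stopped passing with replicate numbers as a block (3.12 ± 0.56, adjusted p = 0.149) and in 12 of 18 fits that left out a library (adjusted p 0.00587 to 0.224), and with ERCC scaling (4.11, adjusted p = 0.300). Without the second intact 12-month library the 12-month difference was 1.77 ± 0.55 (adjusted p = 0.0652). The change of the injury difference with age was not shown for Vim by the interaction test (p = 0.0667, edgeR adjusted p = 0.650). At 8 months edgeR called 0 of 6 members (0.957% of all genes), with 2 at an unadjusted p under 0.05, DESeq2 called 0 and limma-voom 1, Vim. At 12 months edgeR called 0 of 6 (2.99% of all genes), with 1 at an unadjusted p under 0.05, limma-voom called 0 and DESeq2 1, Nefh.

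**Figure D2:**
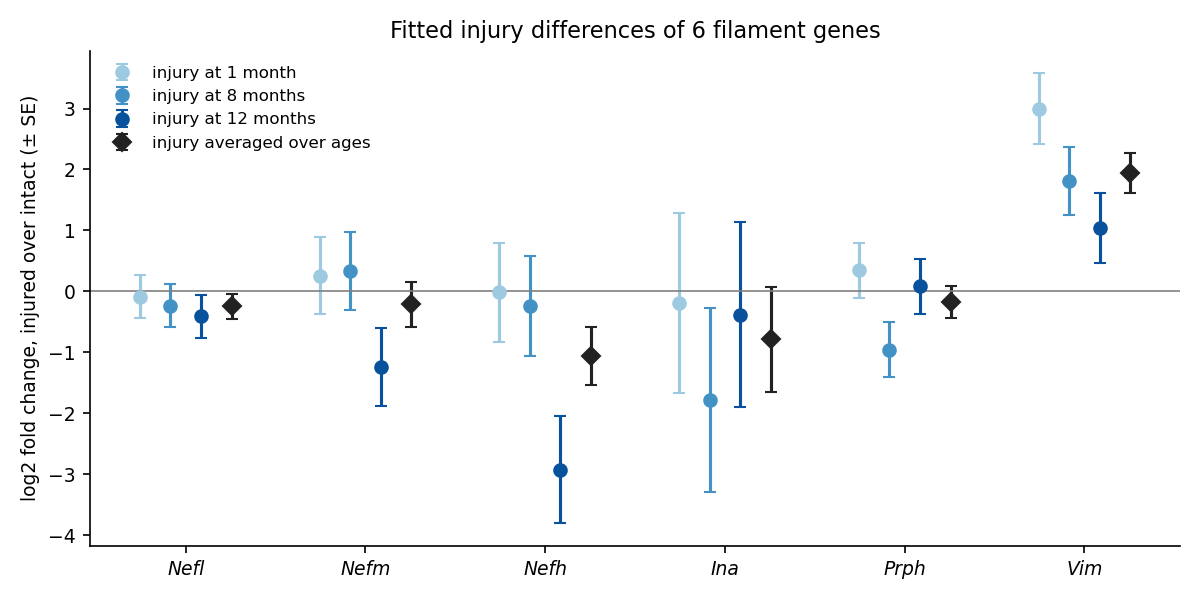
Fitted log2 difference, injured over intact, of the 6 filament genes at each age (blue points, lighter for younger) and averaged over ages (black diamonds), with bars of ± 1 SE. Vim is above 0 at all 3 ages, 2.9996 at 1 month and 1.95 averaged; Nefh is at -2.92 at 12 months with the second intact library included.

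Ratios of members within a library do not depend on its scaling. The ratio of Prph to Nefh per kb ran from 0.0676 to 7.72 in the 9 intact libraries (median 2.31) and from 1.66 to 9.43 in the 9 injured ones (median 2.49). Its mean log2 difference, injured minus intact, was 0.57 (two-sided exact permutation test within ages, p = 0.523, adjusted over 6 ratios 0.756), and -0.02 without the second intact 12-month library. Prph to Nefl differed by 0.17, Nefh to Nefl by -0.40, Nefm to Nefl by 0.20 and Ina to Nefl by 0.40 on the log2 scale, and none of these passed (exact permutation p 0.452 to 0.756). Without the second intact 12-month library these differences were -0.05, -0.03, 0.45 and -0.06 in the same order. Nefm to Nefl then had an exact permutation p of 0.028 (adjusted p = 0.084). Vim to Nefl rose by 2.36 (exact permutation p = 0.00025, the smallest that the 8000 arrangements allow, adjusted p = 0.0015). Its ratio per kb spanned 0.00135 to 0.0144 in intact and 0.0172 to 0.0387 in injured libraries, which did not overlap over all 18 libraries. This ratio rests on the same Vim counts as the difference above. The share of other genes whose ratio to Nefl separates the libraries in this way was not counted.

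Other cells of the ganglion express Vim, so their markers are given beside it. Fibroblast markers (Col1a1, Col1a2, Col3a1, Dcn, Lum and Pdgfra) summed to 18.6 to 63.7 CPM in injured libraries and 0 to 74.1 CPM in intact ones, or at most 16.7 CPM without the second intact 12-month library. Of 5 tested, edgeR called 1, in a comparison that called 5.11% of all genes as higher, and DESeq2 and limma-voom 2, Col1a2 and Dcn. Col1a2, a collagen chain, was called higher after injury (log2 difference 3.93, edgeR adjusted p = 0.0254), from 0 to 2.79 CPM in intact to 0.874 to 4.23 CPM in injured libraries. That call was lost with the replicate block (4.48, adjusted p = 0.0951), with the CT010467.1 share (5.69, adjusted p = 0.267) or its log odds (5.74, adjusted p = 0.142) as a covariate, and in 2 of 18 fits without a library (adjusted p up to 0.0627), while the difference itself was no smaller with the block and the covariates. Dcn, a matrix proteoglycan and the most abundant of them, had a difference of 2.23 (edgeR adjusted p = 0.0535, DESeq2 0.00919, limma-voom 0.00911), with 12.3 to 56.7 CPM after injury against 0 to 63.2 CPM. The 63.2 CPM belonged to the second intact 12-month library, and the other intact libraries reached at most 14.8 CPM. Without that library the difference of Dcn was 2.73 ± 0.64 (SE; edgeR adjusted p = 0.0170). In 15 of 18 fits without a library Dcn did not pass (edgeR adjusted p up to 0.103).

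The 5 satellite glia markers, which include Fabp7, Kcnj10, Apoe and Cdh19, had a summed level of 1.38 to 1914 CPM after injury and 6.08 to 668 CPM in intact libraries. Without the second intact 12-month library the highest intact sum was 535 CPM. At 1 month the sums of the injured libraries (1185, 1914 and 1873 CPM) all lay above those of the intact ones (8.17, 184 and 535 CPM). At 8 months (291, 613 and 620 against 24.1, 482 and 63.5 CPM) and at 12 months (1.38, 317 and 263 against 6.08, 668 and 7.61 CPM) they overlapped. Of these 5 genes edgeR called 0, DESeq2 1 (Cdh19) and limma-voom 0, with 1, 1 and 5 at an unadjusted p under 0.05, and their median log2 difference was 1.41. Vim in the injured 12-month library with a sum of 1.38 CPM was at 44.2 CPM, its lowest level in the 9 injured libraries. In the 3 injured 1-month libraries, which had the highest sums, Vim was at its highest, 74.1 to 84.6 CPM. Among intact libraries the highest sum, 668 CPM, lay in the library with the highest Vim, 50.6 CPM. The relation of Vim to these sums was not tested.

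Schwann cell markers reached 310 to 549 CPM after injury and 204 to 846 CPM without it, most of it Pmp22, and Mag was at 0 in 9 of 9 injured and 7 of 9 intact libraries. Immune cell markers summed to 1.70 to 9.51 CPM after injury and 0 to 32.5 CPM in intact libraries, or at most 4.02 CPM without the second intact 12-month library. Among them Csf1r, a receptor of macrophages and microglia, was at 0.410 to 7.92 CPM after injury and at 0 in 6 of 9 intact libraries (log2 difference 3.31, edgeR adjusted p = 0.0614), and DESeq2 and limma-voom called it higher. Ptprc, the pan-leukocyte marker, was at 0 in 7 injured and 8 intact libraries. Endothelial markers summed to 0.0694 to 2.87 CPM after injury and 0 to 16.3 CPM in intact libraries, or at most 1.96 CPM without that same 12-month library. The part of these cells in the Vim difference was not tested.

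**Figure D3:**
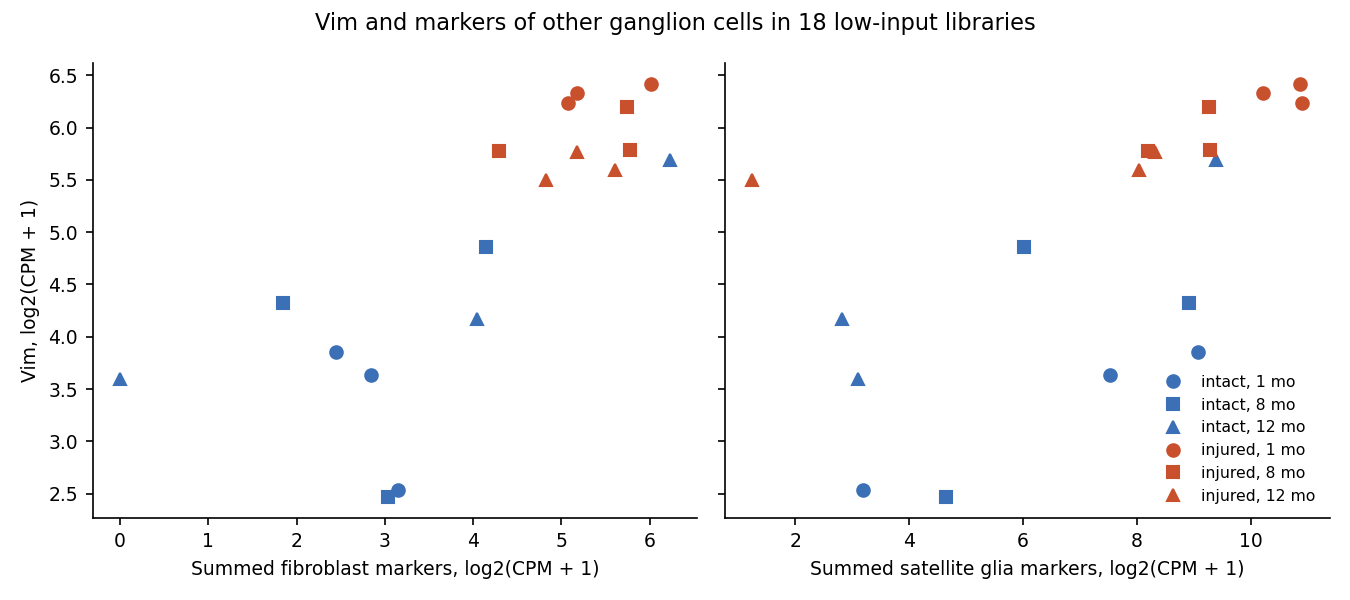
Vim against the summed markers of fibroblasts (left) and satellite glia (right) in the 18 low-input libraries, all as log2(CPM + 1), with colour for condition and shape for age. Injured libraries lie above 44 CPM of Vim over the whole range of satellite glia sums, lowest at the lowest sum and highest in the 1-month libraries with the highest sums. Their fibroblast sums lie above those of all intact libraries but the second of 12 months.

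Other genes of the filament system were followed in lists by role, and their counts stand beside the 6.18% of all genes called in the averaged comparison. Of 13 other intermediate filament genes 9 were tested and 1 was called in the averaged comparison, the simple epithelial keratin Krt19. It had no counts in the 9 intact libraries and 1.68 to 10.4 CPM in the 9 injured ones (edgeR adjusted p = 0.000212), a low but separate signal that did not pass with the CT010467.1 share as a covariate (adjusted p = 0.113). Synm (synemin), Lmna (lamin A/C) and the other 6 did not pass in edgeR, at -0.63 to 1.43, while limma-voom also called Iffo2 (log2 difference 1.43 in edgeR, adjusted p = 0.163). Nes, Gfap, Krt8 and Krt18 were under the filter.

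Of 11 kinases and their partners that act on neurofilament tails, Cdk5r2, which encodes the p39 activator of Cdk5, was called lower at -1.62 ± 0.25 (SE; edgeR adjusted p = 0.000868). Its mean was 11.5 ± 3.85 CPM after injury against 35.7 ± 17.2 CPM (SD, n = 9 each), and it did not pass with the CT010467.1 share as a covariate (-0.49 ± 0.43, adjusted p = 0.662). Scaled to the ERCC spike-in RNAs, which moved the median of all genes to 2.90, its difference was 1.38. Cdk5 itself, at 93.9 and 95.9 CPM, and the activator Cdk5r1, at 17.2 and 18.4 CPM in injured and intact libraries, did not pass.

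Of the chaperones of filaments, 3 that did not pass are given here. The small heat shock protein gene Hspb1 had 470 ± 157 CPM after injury against 249 ± 170 CPM (SD, n = 9 each; edgeR adjusted p = 0.203). Its relative Hspb8 had 224 ± 40.98 against 174 ± 39.9 CPM (edgeR adjusted p = 0.235), and Cryab, which encodes alpha-B crystallin, 17.2 ± 11.7 against 38.2 ± 38.2 CPM (edgeR adjusted p = 0.224).

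None of 3 linkers (Dst, Plec, Macf1), 8 transport motor genes and 3 genes for proteins that bind neurofilament mRNA was called by edgeR, with 0, 2 and 0 at an unadjusted p under 0.05. DESeq2 called 0, 1 (Kif5b) and 0 of them, and limma-voom 1 (Macf1), 0 and 0. The median log2 difference of the tested genes was 0.06 for other filaments, 0.18 for linkers, -0.13 for kinases, 0.34 for turnover genes and chaperones, 0.05 for motors and -0.04 for the mRNA-binding proteins, against 0.03 for all genes and -0.23 for the 6 members.

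Age was compared over 1, 8 and 12 months by a joint test. In intact neurons edgeR called 0 of 6 members (4.17% of all genes), with Nefh and Prph at an unadjusted p of 0.0271 and 0.0285 (adjusted p = 0.164 and 0.167), while limma-voom called 0 and DESeq2 1, Nefh. Nefh differed between 12 and 8 months by 2.35 ± 0.86 on the log2 scale (SE), and without the second intact 12-month library its joint p was 0.254, while without the third it passed (adjusted p = 0.0421). Prph differed by -1.35 ± 0.46 between 12 and 8 months, with the high second library at 8 months and the low second library at 12 months on either side. In injured neurons 0 of 6 were called by edgeR, DESeq2 and limma-voom (0.218% of all genes by edgeR), with 0 at an unadjusted p under 0.05 in each. Injured Prph had means of 1024 ± 148 CPM at 1 month, 637 ± 167 at 8 and 513 ± 53.2 at 12 months (SD, n = 3). The log2 difference between 12 and 1 months was -0.996 ± 0.45, and the joint test did not pass (edgeR p = 0.0979, adjusted p = 0.9995). The interaction test called 0 of 6 members and 0.0% of all genes, with 1 member, Nefh, at an unadjusted p under 0.05, and DESeq2 and limma-voom also called 0.

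Across the 18 low-input libraries the 3 neurofilament chains varied together and apart from Prph and Ina. Pearson's r of log2 CPM was 0.88 between Nefm and Nefh, 0.77 between Nefl and Nefh and 0.65 between Nefl and Nefm, and 0.94, 0.74 and 0.70 for deviations from the group means. Ina went with Prph (0.52) and against Nefh (-0.61). Vim had r of -0.14 to 0.26 with the other members. The libraries share the second intact 12-month library as an extreme of Nefm and Nefh, and these are descriptions without a test.

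The genes most like each member over the 18 libraries included Ube2o (r = 0.92) and Nat8l for Nefh, Myh10 (0.91), Itsn1 and Epb41l1 for Nefm, and Six4 (0.83), Fbxo31 and Nefh for Nefl. For Ina they were Plcl2 (0.94), Tspan14 and Dgkg, and for Prph Kctd5 (0.88), Nenf and Pgls. For Vim they were Ptprz1 (0.91), a receptor tyrosine phosphatase, Tnfrsf1b (0.89), a tumour necrosis factor receptor, and Sod3 (0.88), the extracellular superoxide dismutase, all at means of 2.06 to 6.50 CPM.

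Among single neurons, 55 of 69 held at least 100000 counts outside CT010467.1 (119832 to 22890735, median 3970033) and were used, 12 of 18 intact and 17 of 21 injured at 1 month and 8 of 8 intact and 18 of 22 injured at 1 year. Since no label ties cells to animals, a group of cells was treated as a single sample and nothing was tested between groups. Cell levels are CPM of counts outside CT010467.1 and are not on the TMM scale used above. The injury markers separated the single cells far less than the low-input libraries. Their sum had a median of 47.4 CPM (0 to 1318) in intact and 110 CPM (3.27 to 15422) in injured cells at 1 month, and 59.7 CPM (8.61 to 282) against 92.5 CPM (21.7 to 2926) at 1 year. Over 20% of counts were mitochondrial in 8 cells, and some of the values that include them are also given without them.

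Nefl and Nefm were above 10 CPM in all 55 cells, Nefh in 54 and Prph in 51. Vim exceeded 10 CPM in 43 cells and Ina in 21, or 38.2% of the cells (exact Clopper-Pearson interval 25.4% to 52.3%, counting error only). The median over cells was 5511 CPM for Nefl, 4576 for Nefm, 1261 for Nefh and 1943 for Prph, against 52.5 for Vim and 3.21 for Ina. Across the 55 cells Spearman's rho was 0.86 between Nefl and Nefm and 0.83 between Nefm and Nefh, and 0.17 between Nefh and Prph, while none of the members had a rho beyond 0.25 with the depth of the cell. Within the 4 groups, of 8 to 18 cells, rho of Nefl and Nefm was 0.78 to 0.93.

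The letters S, M, ML and L that close most cell names are not explained in the labels and are used here only as names of sets. The share of Prph in the sum of Prph and Nefh per kb had a median of 96.2% in 13 S cells (50.5% to 98.8%). It was 75.4% in 17 M cells (0% to 98.7%), 70.1% in 2 ML cells, 67.04% in 12 L cells (0.716% to 94.2%) and 64.4% in 10 cells with no letter (17.3% to 83.1%). As a ratio, the median of Prph to Nefh per kb was 25.04 for S, 3.06 for M, 2.46 for ML, 2.06 for L and 1.84 for cells with no letter. All 13 S cells lay above 50% and 7 of them above 90%, against 1 of 17 M and 1 of 12 L cells above 90%. Without the cells over 20% mitochondrial counts the median shares were 96.7% in 11 S, 77.7% in 15 M and 71.2% in 10 L cells. The lowest share was then 24.9% in M and 44.8% in L cells. The S cells thus lay at the top of the range, while M and L overlapped almost fully.

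**Figure D4:**
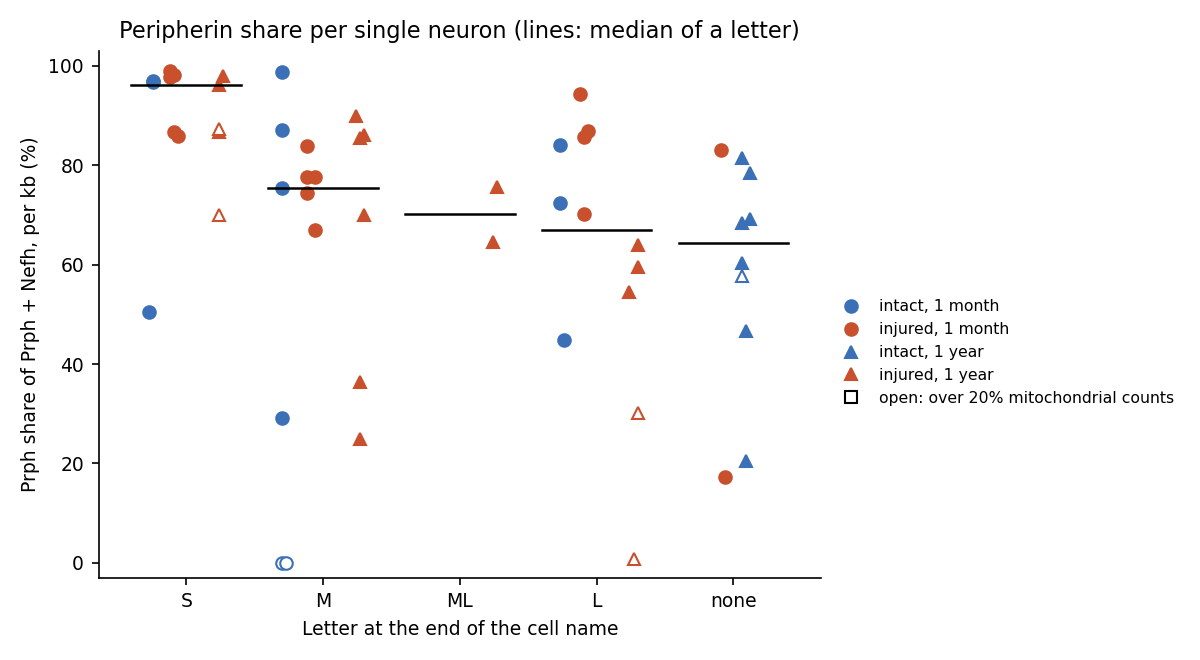
Share of Prph in the sum of Prph and Nefh per kb of exon, in percent, for each of 54 single neurons by the letter that closes the cell's name. Lines are medians of a letter, colour and shape give condition and age, and open symbols are cells with over 20% mitochondrial counts. All 13 S cells lie above 50%, and the 3 cells under 10% are open symbols.

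S cells differed from the other letters more in Nefh than in Prph. Median Nefh was 215 CPM in S, 845 in M and 1387 in L cells, whereas median Prph was 2595 CPM in S, 1435 in M and 2446 in L cells. Nefl and Nefm followed Nefh, with medians of 2448 and 1715 CPM in S against 5778 and 5251 in M and 5532 and 5580 in L cells. Median Ina was 103.3 CPM in S cells, 0 in M and 6.04 in L cells. Vim had medians of 22.5, 22.7 and 73.4 CPM in S, M and L cells. In each of the 3 groups that hold lettered cells, the median share of Prph was highest in S, at 96.7% in 3 intact and 97.7% in 5 injured cells at 1 month and 87.2% in 5 injured cells at 1 year. For L it was 72.4% (3 cells), 86.3% (4 cells) and 54.5% (5 cells) in the same groups. For M it was 52.3% (6 cells, 2 of them at 0%), 77.7% (5 cells) and 77.7% (6 cells). M thus lay below L in the 1-month groups and above it at 1 year.

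**Figure D5:**
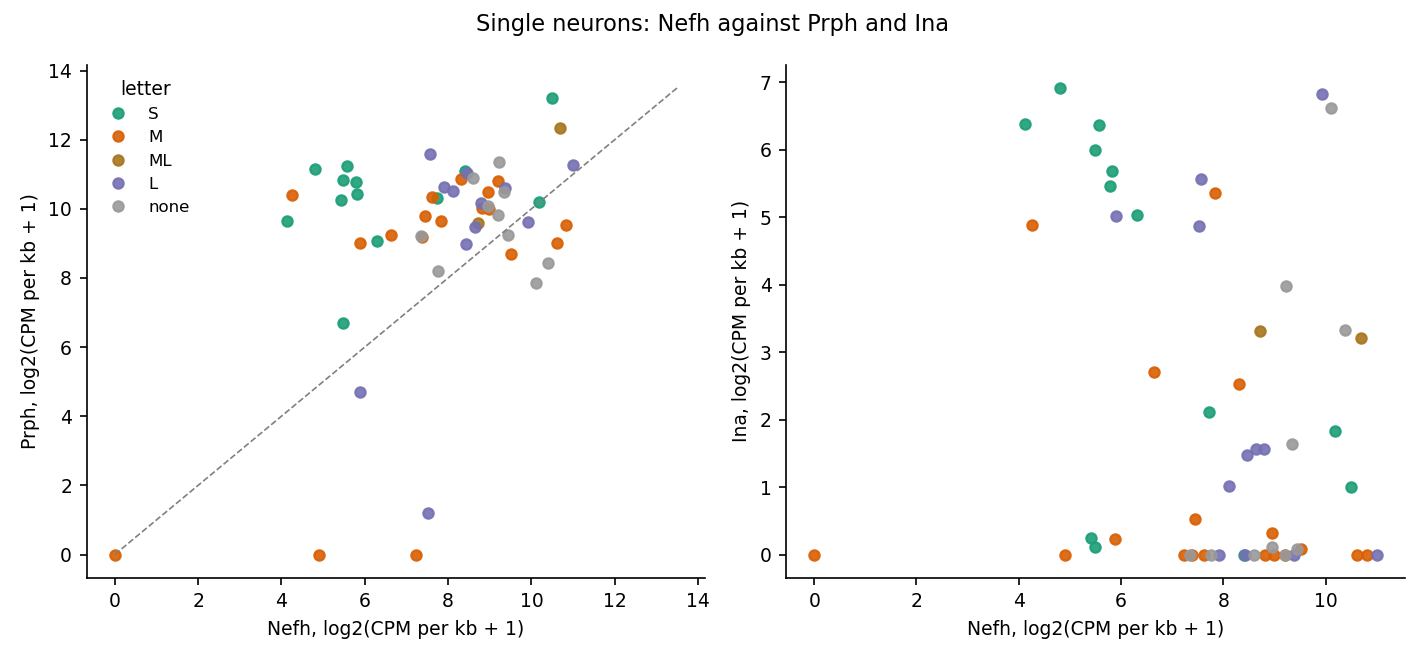
Level per kb of Prph (left) and Ina (right) against Nefh in 55 single neurons, as log2(CPM per kb + 1), coloured by the letter in the cell name, with equality of Prph and Nefh as the dashed line. S cells lie to the left in Nefh, at a median of 215 CPM, with Prph at a median of 2595 CPM, and 8 of the 21 cells with at least 10 CPM of Ina are S cells.

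By condition, the median share of Prph was 73.9% in 12 intact (0% to 98.7%) and 84.8% in 16 injured cells (17.3% to 98.8%) at 1 month. At 1 year it was 64.4% in 8 intact (20.5% to 81.5%) and 69.99% in 18 injured cells (0.716% to 98.0%). The cells at 0% and 0.716% had over 20% mitochondrial counts. Without such cells the lowest share was 29.2% in intact 1-month and 24.9% in injured 1-year cells. The ranges overlapped, and the groups differ in letters, since no intact 1-year cell bears one. Median Nefh was 942 and 912 CPM in intact and injured cells at 1 month and 2364 and 1318 CPM at 1 year. Without the cells over 20% mitochondrial counts it was 1437 and 933 CPM at 1 month and 2380 and 1635 CPM at 1 year. Over the cells with at least 1000000 counts it was 2495 in 6 intact and 954 in 11 injured cells at 1 month, and 2364 and 727 CPM at 1 year, so these medians depend on which cells are kept. Median Prph was 2247 and 2903 CPM at 1 month and 1396 and 1226 CPM at 1 year. With the cells over 20% mitochondrial counts left out it was 2362 and 2922 CPM at 1 month and 1669 and 1454 CPM at 1 year.

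The Prph share went with markers that its rule did not use. Of the 9 cells above 90%, 7 had at least 10 CPM of Mrgprd, a receptor of non-peptidergic nociceptors, against 5 of 42 cells between 10% and 90%. P2rx3, a purinergic channel of nociceptors, reached 10 CPM in 8 of 9 and 25 of 42 cells, and Tac1, the substance P precursor, in 8 of 9 and 7 of 42. Ntrk2, a neurotrophin receptor of some mechanoreceptors, reached it in 0 of 9 and 29 of 42 cells. Large-fibre markers summed to a median of 130 CPM (9.38 to 213) above 90% and 982 CPM (147 to 5931) between 10% and 90%. Over the 55 cells, Spearman's rho with the large-fibre sum was 0.53 for Nefh and -0.41 for Prph. The 3 cells under 10%, with Prph at 0 to 2.45 CPM, all had over 20% mitochondrial counts.

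Vim in single cells had medians of 39.8 CPM in intact and 76.9 CPM in injured cells at 1 month, and 46.1 and 75.2 CPM at 1 year. The ranges overlapped, with 0 to 229 against 0 to 238 CPM at 1 month and 3.68 to 302 against 0 to 2891.5 CPM at 1 year. The highest cells, 1454 and 2891.5 CPM and both injured at 1 year, had over 20% mitochondrial counts. Without such cells the 1-year medians were 63.2 CPM for 7 intact and 60.2 CPM for 14 injured cells. The same step moved the 1-month medians further apart, to 47.6 CPM for 10 intact and 99.4 CPM for 16 injured cells. With the counts of a group pooled, Vim reached 86.4 CPM without and 89.7 CPM with injury at 1 month, and 68.97 and 295 CPM at 1 year, so that the last value rests on few cells. Over the cells with at least 1000000 counts the 1-month medians were in the other order, 67.5 CPM in 6 intact and 39.5 CPM in 11 injured cells. Satellite glia markers were under 10 CPM in 10 injured 1-month cells, of which 8 had at least 10 CPM of Vim (median 58.2 CPM). Of the 7 injured 1-month cells with at least 10 CPM of these markers, 5 had at least 10 CPM of Vim (median 123 CPM). All 17 injured 1-month cells held counts of fibroblast, endothelial or immune cell markers. Over all 55 cells Spearman's rho of Vim was 0.45 with the injury marker sum and 0.23 with the satellite glia sum. In the 18 injured 1-year cells its rho with the satellite glia sum was 0.75.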

How the data were processed

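Per the file header, the authors counted read pairs over exons by gene name with featureCounts 1.5.2, using GENCODE vM16 with ERCC spike-in sequences, without strand, and with reads that overlap more than 1 gene left out. The deposited values are raw counts. The submitters' processing notes name Trim Galore, STAR, Bismark and the build mm10 (GRCm38). The bisulfite libraries were not analysed here.

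All 18 low-input libraries entered 1 fit of 6 groups (edgeR 4.0.16 in R 4.3.3, quasi-likelihood test, TMM, filterByExpr, 14212 genes of 53278, residual df 12). Injury contrasts were averaged over ages or taken at each age, and age was tested jointly. A call is a Benjamini-Hochberg adjusted p under 0.05 over all genes tested. The code was tested on simulated data. DESeq2 1.42.0, limma 3.58.1 (limma-voom) and the other alternatives are given in the closing section. Ratios of members used 1 count as pseudocount and an exact permutation within ages (SciPy 1.17.1). Intervals cover counting error only. Named genes were the members, up to 3 called genes per direction of each list, and the 3 genes most correlated with each member. Some genes that this rule or the lists hold are not reported here. The members and lists were chosen with earlier results of these data known.

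No label says whether replicate numbers pair an intact with an injured library. At 1 month the deviations of same-numbered libraries from their groups had r of 0.109, 0.371 and 0.328 over 2365 genes. At 8 months r was -0.432, -0.241 and -0.016 and at 12 months -0.085, -0.061 and 0.078. Libraries with different numbers were not compared, so pairing is not established at any age.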

Additional observations from a re-analysis of the deposited data

Results flagged for a closer look

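In the 8 intact 1-year cells, the highest Nefh level was 5350.1 CPM, with the next at 2764 CPM. That gap was 0.549 of the range of the group, above the critical value of 0.526 for 8 values. The highest Vim level in these cells was 302.084 CPM, with the next at 104 CPM, a gap of 0.663 of the range. For normally distributed values such a gap arises by chance in about 1 in 20 groups, and 7 quantities were tested. Whether CPM of single cells are so distributed was not tested, so the rate may be higher here.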

How the results depend on the processing

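The averaged Vim difference kept its direction under every alternative run and stopped passing only with the CT010467.1 share as a covariate. The counts of genes called moved far more than Vim. Averaged over ages, 878 genes were called, against 13493 with ERCC scaling, 1722 with no filter, 1548 with DESeq2, 11 with the CT010467.1 share and 233 with its log odds as covariate (a setting chosen after seeing the data), and 561 to 1462 without 1 library. At 1 month 33 became 50 (ERCC), 276 (no filter), 123 (DESeq2), 61 (limma-voom), 50 (only the libraries compared), 15 (share), 16 (log odds) and 6 to 47 (without 1 library). At 8 months 136 became 631, 661 and 533 with ERCC, no filter and DESeq2, 4 with only the libraries compared, 5 and 9 with the share and its log odds, and 27 to 236 without 1 library. At 12 months 425 became 13675, 937, 1238, 52, 0 and 139 in the same order, and 74 to 1036. The interaction called 0 genes, and 1 with RLE size factors, 60 (ERCC), 385 (no filter), 208 (DESeq2), 1 (share) and 0 to 20 (without 1 library). Age in intact neurons called 593, and 12158 (ERCC), 1951 (no filter), 1972 (DESeq2), 1357 (limma-voom), 5 (only the libraries compared), 1070 (log odds) and 254 to 1697. Age in injured neurons called 31, and 8, 319, 133, 63 and 186 in the order of those first 5, 20 with the share, and 14 to 42. The cause of these moves was not tested.

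With the replicate block 329 genes were called averaged over ages, 5 at 1 month, 29 at 8 months, 58 at 12 months and 1 in the interaction. The block turned the averaged Nefm difference from -0.21 to 0.0081, and Vim to Nefl still passed (exact permutation adjusted p = 0.0234).

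ERCC scaling moved the median of all genes to 2.90 averaged over ages and made the averaged differences 2.60 (Nefl), 3.17 (Nefm), 2.50 (Nefh), 1.91 (Ina) and 2.42 (Prph), with Prph at 8 months at 0.18 and Nefh at 12 months at 3.97. The share as covariate gave 1.28 (Nefm), 0.91 (Nefh), 0.12 (Prph) and 0.96 (Nefh at 12 months), and its log odds 0.026 (Nefl), 1.27 (Nefm), 0.77 (Nefh) and 0.98 (Nefh at 12 months). limma-voom gave 0.0050 for Nefm and 0.052 for Ina. Without 1 library Nefm spanned -0.36 to 0.39, Prph -0.28 to 0.096, and the log2 ratios Prph to Nefh -0.021 to 1.10, Prph to Nefl -0.052 to 0.40 and Ina to Nefl -0.69 to 1.17. With a pseudocount of 10 counts Ina to Nefl was -0.18. The 90 single-cell alternatives moved by less than 1 SD over cells, which is a loose bound. In intact 1-month cells that SD was 2252 CPM for Nefh, whose median went from 942 CPM to 2495 CPM with at least 1000000 counts. The alternative without cells over 20% mitochondrial counts, which is among the 90, was chosen after seeing the data. The levels per kb, ranks, shares of chains and marker sums without the second intact 12-month library were also chosen after seeing the data.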

Other observations

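The 14 single cells left out for depth held 0 to 95399 counts outside CT010467.1, and 1 of them had no counts. They were 6 intact and 4 injured cells at 1 month and 4 injured cells at 1 year. At least 10 CPM of Ina was found in 8 of 13 S cells, 4 of 18 M cells, 4 of 12 L cells, 2 of 2 ML cells and 3 of 10 cells with no letter.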
